A study of Homo sapiens and Mus musculus with 213 samples.

Results

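Polycomb repressive complex 2 (PRC2) was followed through the transcripts of 10 of its subunit genes, EZH2, EZH1, SUZ12, EED, RBBP4, RBBP7, JARID2, MTF2, PHF1 and PHF19. The rule is a list of gene names that uses no measured value, but the list was drawn up with earlier results of these data known. All 10 were found among the 58336 genes listed and among the 20884 tested. RNA was sequenced from 3 lines of HEK293T, immortal cells first grown from human embryonic kidney, with 3 libraries a line and no drug or time course. WT cells keep the natural G-quadruplex (G4) motif upstream of MYC. MUT cells carry point mutations in the G-runs of that motif, chosen so that no G4 folds, and SWP cells carry a G4 motif of another gene in its place. The edited lines were made with CRISPR, sorted and subcloned, and it is not stated whether the 3 libraries of a line come from 1 clone, so p-values may measure only the spread between cultures of a clone. The WT library names carry a sequencing pool that the MUT and SWP names lack, so that pool and line cannot be told apart in a comparison with WT.

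PRC2 places methyl groups on lysine 27 of histone H3, a mark of silenced developmental genes. EZH2 or its paralog EZH1 is the enzyme, SUZ12 is the scaffold, EED reads the mark and stimulates the enzyme, and RBBP4 or RBBP7 binds histones. Around this core, accessory subunits define alternative forms of the complex. One form holds MTF2, PHF1 or PHF19, which bring it to CpG-rich DNA, and the other holds JARID2 and AEBP2. EZH2 is known as a proliferation gene driven by E2F factors and has been linked to MYC, while EZH1 predominates in resting cells.

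The values are reads per gene divided by a size factor for each library and are called normalized counts. Between 65024354 and 98497026 reads per library fell on genes. WT replicate 1 and SWP replicate 1 stood farther from their line than the others, with a chi-square per degree of freedom against the other 2 libraries of 41.9 and 60.2 for WT and 43.9 and 54.0 for SWP, where the remaining pairs had 26.6 and 13.2. MYC had 23332 normalized counts in WT, 11423 in MUT and 21489 in SWP. MYC fell by 1.02 on the log2 scale in MUT against WT (adjusted p = 0.00182). The SWP difference from WT was -0.15 (adjusted p = 0.712). Of 6 markers expressed in HEK293 cells, VIM had 58968, 57849 and 53004 normalized counts in WT, MUT and SWP, and KRT18 had 2790, 3857 and 2349. Of the 6, 3 were called in MUT against WT (KRT8 0.77, NEFL 1.07 and NEFM -0.58 on the log2 scale), where 21.4% of all genes were called. In SWP against WT limma called 3 (KRT8 -1.27, NEFL -0.54 and INA 1.44), where it called 5.13% of all genes. There edgeR called 2 of the 6, as did DESeq2. Some intermediate filament genes thus differed between the lines. Their part in the results was not tested. PTPRC, ALB, PECAM1, CD3E, HBB and MYH6, which mark other cell types, had at most 3.9 in any line's mean.

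Since the edit concerned a promoter G4 and the gene edited encodes a transcription factor that binds the E-box, the promoters of the subunit genes are shown for those letters. The RefSeq promoter windows (GRCh38.p14) run from 250 bases before the start site to 50 after it, and all 10 members matched, with 52.3% to 78.3% G or C against a median of 58.3% over 27305 promoters. A G4 motif was searched on both strands as 4 runs of at least 3 G separated by loops of 1 to 7 bases. It was present in 6 of 10 members and in 24.1% of all promoters. EZH2, EZH1, SUZ12, RBBP7, PHF1 and PHF19 held it, while EED, RBBP4, JARID2 and MTF2 did not. The paper used RBBP4 as a G4-positive control site, so a window without this motif is not shown to lack a G4. G-runs are in capitals below, with 1 match per gene (PHF1 had 2 and PHF19 had 3).
EZH2, chr7:148884441-148884459, plus strand, the strand opposite the gene: GGGctcgtGGGcGGGcGGG
EZH1, chr17:42745223-42745244, plus strand, opposite the gene: GGGGaGGGGaaGGGctctGGGG
SUZ12, chr17:31936921-31936948, plus strand, the strand of the gene: GGGGGaatccgcGGGccaacGGGctGGG
RBBP7, chrX:16870556-16870584, plus strand, opposite the gene: GGGGcgcgcGGGGGcGGGGcggatgaGGG
PHF1, chr6:33410985-33411008, minus strand, opposite the gene: GGGGGGGaGGGaGGGaGGGGaGGG
PHF19, chr9:120868981-120869003, minus strand, the strand of the gene: GGGGGtGGGGcctcGGGGGcGGG

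The E-box CACGTG, which reads the same on both strands, was present in 1 of 10 members and in 7.43% of all promoters, and the E2F motif TTTCGCGC or TTTGGCGC, on either strand, in 1 of 10 and 1.18%. The E-box lay in RBBP4, 237 bases before its start. The E2F motif lay in EZH2, at the base after its start. Both are given on the strand of the gene with the motif in capitals and up to 11 bases on each side. A match is a description of letters and not of a bound site.
RBBP4, chr1:32650960-32650987, plus strand: caaacctctctCACGTGaccctgaccgg
EZH2, chr7:148884272-148884301, minus strand: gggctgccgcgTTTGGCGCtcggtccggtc

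In MUT against WT, 1 of 10 subunit genes was called (a log2 fold change beyond 0.5 with an adjusted p under 0.05), against 21.4% of all genes, 11.3% higher and 10.1% lower. That gene was EZH1, which fell. In these bulk samples, fewer cells with a transcript and less of it per cell cannot be told apart. By the adjusted p alone 5 of 10 passed, against 38.4% of all genes (47.6% of all genes, and 5 of 10 members, at an unadjusted p under 0.05): EZH1, RBBP7, JARID2 and MTF2 were lower in MUT and PHF19 was higher. The median log2 fold change of the 10 was -0.12, and that of all genes tested was -0.0034. Values of the lines did not overlap for 7 of 10 members, against 52.3% of all genes. EZH2, SUZ12, EED, RBBP4 and PHF1 did not pass.

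In SWP against WT, limma called 0 of 10, against 5.13% of all genes (2.15% higher and 2.98% lower), with 6 of 10 at an unadjusted p under 0.05, against 23.9% of all genes, and 0 called by edgeR or DESeq2. By the adjusted p alone 4 of 10 passed, against 9.97% of all genes: EED and PHF19 were higher, and SUZ12 and RBBP7 lower. The lines did not overlap for 5 of 10, against 24.6%. In MUT against SWP, limma called 0 of 10, against 20.6% (12.3% higher and 8.31% lower), with 6 at an unadjusted p under 0.05, against 47.2% of all genes, and again 0 called by edgeR or DESeq2. Here 5 of 10 passed by the adjusted p alone, against 38%: EZH1, EED, JARID2 and MTF2 were lower in MUT and PHF1 was higher. The lines did not overlap for 7 of 10, against 52.3%. With the replicate number as a block, EZH1 also passed by the adjusted p in SWP against WT, and PHF19 in MUT against SWP. The block also raised the number of all genes called by both thresholds, from 1072 to 1464 and from 4309 to 4773 in the same order. The share of all genes passing by the adjusted p alone is not given for the block, so nothing is drawn from EZH1 and PHF19 being added. MUT and SWP are compared with the same WT libraries, so their differences from WT are not independent.

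**Figure D1:**
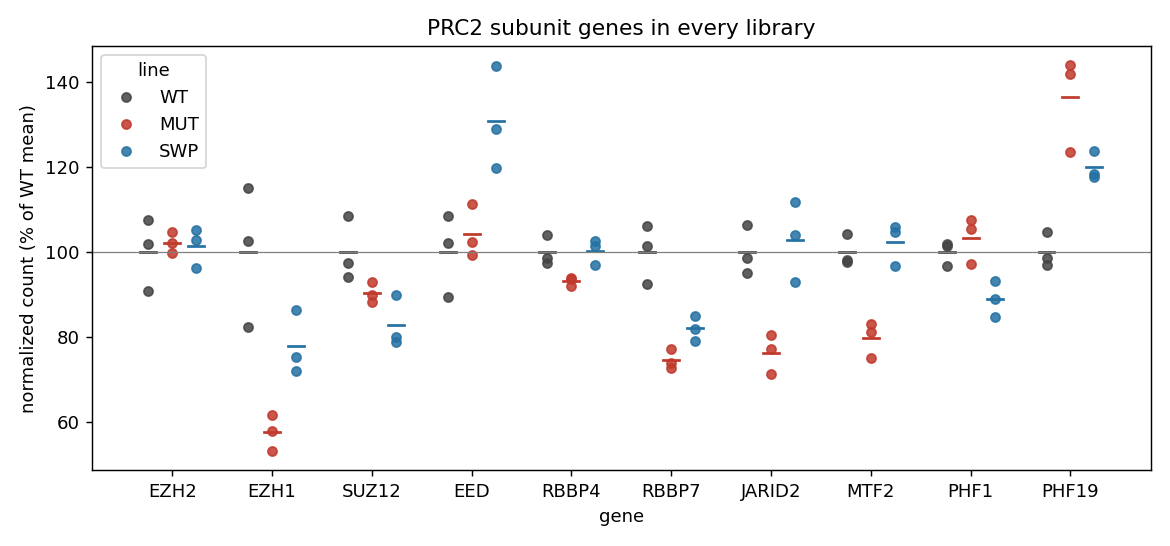
Normalized count of each subunit gene in every library, as a percent of the WT mean (vertical axis). Points are libraries (WT grey, MUT red, SWP blue, 3 each) and bars are line means. The MUT libraries of EZH1, RBBP7, JARID2 and MTF2 lie below every WT library, the MUT and SWP libraries of PHF19 lie above, and EED is high in SWP.

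Of the catalytic subunits, EZH1 fell in MUT and EZH2 did not pass the test in any comparison. EZH2 had 9560, 10720 and 11311 normalized counts in the WT libraries, 10508, 11018 and 10745 in MUT, and 10133, 11078 and 10819 in SWP. The 3 lines overlapped, with WT replicate 1 the lowest library. The log2 fold change was 0.034 in MUT against WT (adjusted p = 0.742, 95% interval from -0.12 to 0.19, that is from -8.30% to 14.3%). It was 0.022 in SWP against WT (adjusted p = 0.894) and 0.012 in MUT against SWP (adjusted p = 0.915). Without WT replicate 1 it became -0.034 in MUT against WT, so that no direction is given for EZH2.

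EZH1 lies on the minus strand at chr17:42700275-42745049 (hg38) and is protein-coding. It had 1845, 2575 and 2297 normalized counts in WT, 1295, 1383 and 1192 in MUT, and 1615, 1935 and 1688 in SWP. Every MUT library lay below every WT and SWP library, while SWP overlapped WT through WT replicate 1. EZH1 fell in MUT to 57.6% of WT (log2 fold change -0.78, SE 0.12, adjusted p = 0.000477). The value ran from -0.92 to -0.68 over the 20 alternatives that change the fit or its data, with adjusted p from 2.95e-08 to 0.00355. MUT against SWP was -0.43 (adjusted p = 0.0151), under the fold threshold, and rose to an adjusted p of up to 0.064 without MUT replicate 3 or SWP replicate 2. SWP against WT was -0.35 (adjusted p = 0.0983), with 0.0111 when the replicate number was a block and between 0.0111 and 0.275 over the alternatives. It also passed without WT replicate 1, where it was -0.48.

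The ratio of EZH1 to EZH2, each as normalized counts per kilobase of exon, was 0.298, 0.370 and 0.313 in the WT libraries, 0.190, 0.194 and 0.171 in MUT, and 0.246, 0.269 and 0.241 in SWP. The lines followed the order WT, SWP, MUT with no overlap. The size of such a ratio depends on the length used, while the order of the lines in a ratio of 2 genes does not. With the canonical transcript as the length, EZH1 had 483 and EZH2 3968 normalized counts per kilobase in WT. No test beyond those of the single genes was made of these ratios. With 3 against 3 libraries, the smallest p of an exact permutation test is 0.1, which EZH1 reached in MUT against WT (two-sided).

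The scaffold SUZ12 had 7184, 6453 and 6236 normalized counts in WT, 6164, 5954 and 5850 in MUT, and 5959, 5296 and 5222 in SWP. Both edited lines lay below every WT library, and MUT overlapped SWP. The difference from WT was -0.14 in MUT (adjusted p = 0.158) and -0.27 in SWP (adjusted p = 0.0450, and 0.00383 to 0.144 over the alternatives). The SWP value passed in only 5 of 20 alternatives, and of the 9 settings that leave out 1 library it passed only without SWP replicate 1.

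EED, the reader of the mark, had its highest values in SWP. It had 3471, 2862 and 3266 normalized counts in WT, 3558, 3273 and 3179 in MUT, and 4599, 4125 and 3828 in SWP. Every SWP library was above every library of the other lines, and MUT overlapped WT. SWP against WT was 0.39 (95% interval from 0.18 to 0.59, adjusted p = 0.0222), and MUT against SWP was -0.32 (adjusted p = 0.0172), while MUT against WT was 0.063 (adjusted p = 0.622). The adjusted p of SWP against WT rose to up to 0.0718 when WT replicate 2 or 3 or SWP replicate 1 or 2 was left out. That of MUT against SWP rose to up to 0.0685 without MUT replicate 2 or 3. The ratio of EED to SUZ12 per kilobase of exon was 0.453 ± 0.038 (SD, n = 3) in WT, 0.521 ± 0.017 in MUT and 0.713 ± 0.023 in SWP. With the canonical transcript as the length, EED at 1532 lay above SUZ12 at 1474 in WT.

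The histone-binding paralogs RBBP4 and RBBP7, which also serve other chromatin complexes, had the highest normalized counts of the set. RBBP7 had 40939, 35666 and 39111 normalized counts in WT, 28035, 29763 and 28482 in MUT, and 31600, 32811 and 30548 in SWP. The lines did not overlap, with WT highest and MUT lowest. The log2 difference from WT was -0.42 in MUT (95% interval from -0.57 to -0.27, adjusted p = 0.000613), which had an adjusted p under 0.05 in 20 of 20 alternatives but lay under the fold threshold. In SWP it was -0.28 (adjusted p = 0.0221), under 0.05 in 13 of 20, which rose to up to 0.083 without WT replicate 1 or 3 or SWP replicate 3. MUT against SWP was -0.14 (adjusted p = 0.131).

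RBBP4 had 27670, 25947 and 26212 normalized counts in WT, 24510, 24956 and 24900 in MUT, and 26969, 27293 and 25822 in SWP. MUT lay below both other lines and SWP overlapped WT. The difference from WT was -0.10 in MUT (95% interval from -0.23 to 0.024, adjusted p = 0.183) and 0.0048 in SWP (adjusted p = 0.973), the latter turning negative when any of 4 libraries was left out. Per kilobase of exon, RBBP4 stood to RBBP7 as 0.536 ± 0.025 in WT, 0.668 ± 0.016 in MUT and 0.654 ± 0.0085 in SWP (SD, n = 3), with MUT and SWP overlapping each other and not WT. With the canonical transcript as the length, RBBP4 had 3376 and RBBP7 16910 in WT.

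JARID2, which joins PRC2 to chromatin in the form without MTF2, had 4829, 5411 and 5018 normalized counts in WT, 3630, 3923 and 4098 in MUT, and 4733, 5290 and 5682 in SWP. Every MUT library was below every other library, and SWP overlapped WT. MUT was lower by a log2 difference of -0.39 against WT (SE 0.083, adjusted p = 0.00354) and of -0.43 against SWP (adjusted p = 0.00199). Both lay under the fold threshold and had an adjusted p under 0.05 in 20 of 20 alternatives. SWP against WT was 0.039 (adjusted p = 0.834). Its partner AEBP2 had a log2 difference of -0.29 in MUT against WT (adjusted p = 0.00545) and of -0.21 against SWP (adjusted p = 0.0280), with means of 4341 normalized counts in WT, 3547 in MUT and 4102 in SWP.

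MTF2 and PHF19, alternative subunits of the other form, differed from WT in opposite directions in MUT. MTF2 had 9003, 8430 and 8458 normalized counts in WT, 7170, 7006 and 6488 in MUT, and 9026, 9134 and 8343 in SWP. Every MUT library was below every other library and SWP overlapped WT. The log2 difference was -0.33 in MUT against WT (adjusted p = 0.00272) and -0.36 against SWP (adjusted p = 0.00148), each below the adjusted p threshold in 20 of 20 alternatives, with SWP against WT at 0.033 (adjusted p = 0.821).

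PHF19 had 2559, 2513 and 2715 normalized counts in WT, 3206, 3680 and 3734 in MUT, and 3053, 3070 and 3208 in SWP. All libraries of the edited lines were above all of WT, and SWP replicate 3 was just above MUT replicate 1. MUT against WT was 0.44 (95% interval from 0.28 to 0.61, adjusted p = 0.000826), below the adjusted p threshold in 20 of 20 alternatives. It went beyond the fold threshold with equal library totals, at 0.52, and without MUT replicate 1, at 0.51. SWP against WT was 0.26 (adjusted p = 0.0493), which was under 0.05 in 9 of 20 alternatives and rose to up to 0.142 when any library other than MUT replicate 1 was left out. MUT against SWP was 0.18 (adjusted p = 0.0746, and 0.0258 with the replicate number as a block, in a range from 0.0258 to 0.238).

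PHF1, the third of these subunits, had 1208, 1273 and 1265 normalized counts in WT, 1315, 1342 and 1212 in MUT, and 1111, 1163 and 1058 in SWP. SWP lay below every WT and MUT library, and MUT overlapped WT. MUT against SWP was 0.21 (adjusted p = 0.0449), which was under 0.05 in 9 of 20 alternatives and rose to up to 0.16 when WT replicate 3, MUT replicate 1 or 2 or any SWP library was left out. The differences from WT were 0.046 in MUT (adjusted p = 0.669) and -0.17 in SWP (adjusted p = 0.206).

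**Figure D2:**
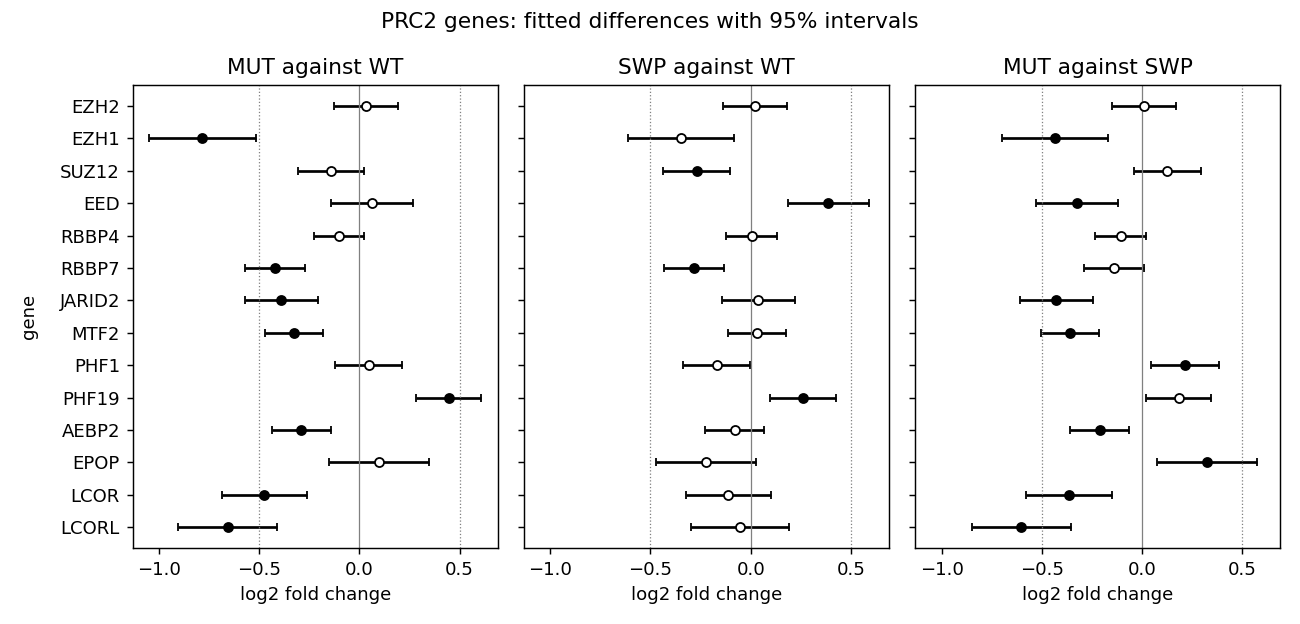
Log2 fold change of the subunit genes and of further PRC2 partners in the 3 comparisons (horizontal axis), with limma's 95% intervals. Filled points have an adjusted p under 0.05 over 20884 genes, and dotted lines mark the fold threshold of 0.5. EZH1 at -0.78 and LCORL at -0.66 lie beyond it in MUT against WT.

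Among the accessory genes MTF2, PHF1, PHF19, JARID2 and AEBP2, taken per kilobase of exon, PHF19 made up 10.8% ± 0.60 of the sum in WT, 16.7% ± 1.3 in MUT and 12.7% ± 0.38 in SWP (SD, n = 3). PHF1 made up 9.49% ± 0.33, 11.2% ± 0.52 and 8.30% ± 0.35 in the same order. The lines did not overlap in the shares of PHF19 and PHF1. The share of JARID2 was 22.3% ± 1.2, 19.4% ± 1.2 and 22.5% ± 1.9, and that of MTF2 was 39.9% ± 1.5, 36.4% ± 1.8 and 40.2% ± 2.0 in the same order. The ratio of the MTF2, PHF1 and PHF19 sum to that of JARID2 and AEBP2 was 1.57, 1.41 and 1.57 in the WT libraries, 1.83, 1.88 and 1.69 in MUT, and 1.69, 1.62 and 1.44 in SWP. MUT lay above all WT libraries, and MUT replicate 3 and SWP replicate 1 were both at 1.69. These shares and sums depend on the length used and are given for all exon bases only.

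**Figure D3:**
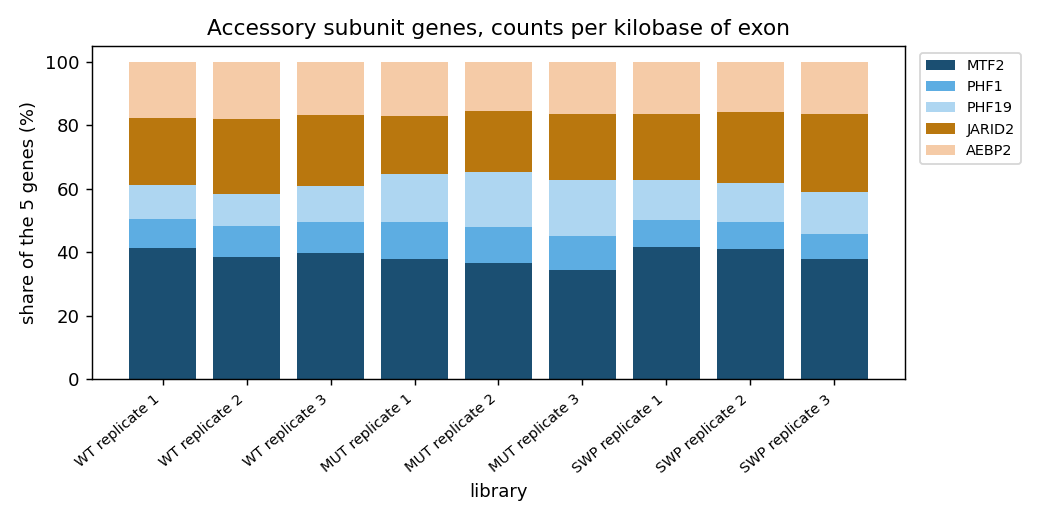
Share of each accessory subunit gene in the sum of the 5 genes (vertical axis, percent of normalized counts per kilobase of exon) in each of the 9 libraries. The PHF19 segment is 15.2% to 17.8% in MUT, 10.3% to 11.4% in WT and 12.3% to 13.1% in SWP.

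Further PRC2 partners were EPOP, LCOR and LCORL, which join the MTF2 form, and EZHIP, an inhibitor of the enzyme. LCORL had 2579, 2861 and 2282 normalized counts in WT, 1626, 1570 and 1683 in MUT, and 2079, 2666 and 2718 in SWP, so that MUT lay below both other lines. It fell in MUT against WT (log2 fold change -0.66, adjusted p = 0.000927) and against SWP (-0.60, adjusted p = 0.00156). Its paralog LCOR had -0.47 against WT (adjusted p = 0.00289) and -0.36 against SWP (adjusted p = 0.0126), under the fold threshold. EPOP had 0.32 in MUT against SWP (adjusted p = 0.0432) and 0.10 against WT (adjusted p = 0.525). EZHIP had 4 to 17 normalized counts in any library, close to the minimum mean of 10, and did not pass in any comparison. Thus 1 of 5 partners was called in MUT against WT and in MUT against SWP, and 0 of 5 in SWP against WT by limma, edgeR or DESeq2, also 0 at an unadjusted p under 0.05. The shares of all genes called were 21.4%, 20.6% and 5.13%, and 23.9% had an unadjusted p under 0.05 in SWP against WT.

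The order of the levels was read per kilobase of all annotated exon bases. In WT it ran from RBBP7 at 5255 ± 365 (SD, n = 3) and RBBP4 at 2810 ± 98 through MTF2 at 1461 ± 55, SUZ12 at 1011 ± 76, EZH2 at 977 ± 83 and JARID2 at 815 ± 48, to EED at 457 ± 44, PHF19 at 394 ± 16, PHF1 at 347 ± 9.9 and EZH1 at 320.4 ± 53. In WT the neighbours SUZ12 and EZH2, EED and PHF19, and PHF1 and EZH1 overlapped, and the other neighbours did not. In MUT and SWP the level of EZH2 was above that of SUZ12 in every library. This order depends on the length used. With the length of the canonical transcript, an alternative chosen after seeing the data, RBBP7 stayed first at 16910, EZH2 came next at 3968 and above RBBP4 at 3376, while EED stood at 1532 and SUZ12 at 1474. EZH1 was lowest in each line under both lengths.

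**Figure D4:**
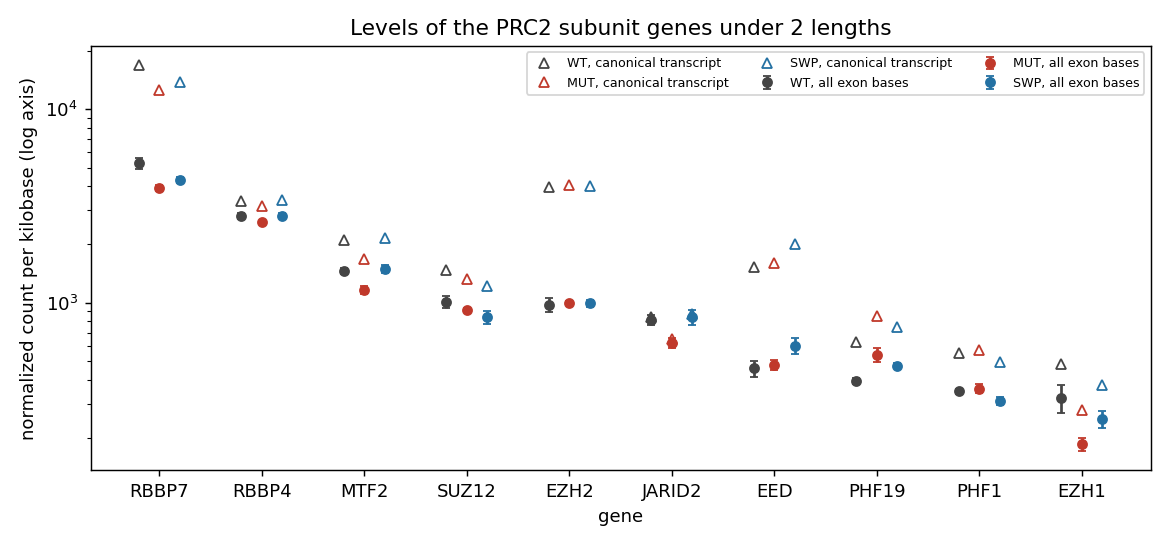
Levels of the subunit genes as normalized counts per kilobase on a log axis. Filled circles are line means with SD over 3 libraries, with all annotated exon bases as the length, and open triangles are line means with the canonical transcript as the length. RBBP7 is highest and EZH1 lowest under both, while EZH2 moves from 977 to 3968 in WT.

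Several members share reads or positions with other genes. RBBP4 has 7 processed pseudogenes by name, 6 of them with reads, and 29.6% of the combined normalized counts in WT, 28.7% in MUT and 29.9% in SWP fell on them. SUZ12P1 took 10.1%, 7.67% and 10.7% of its sum with SUZ12 in the same order. When the pseudogene reads were added to their genes, no member gained or lost a call. Where strand is not used in counting, reads from overlapping genes on opposite strands cannot be told apart, and its use is not stated. The normalized counts given for the overlapping genes are means over the 9 libraries. RBBP7 shares 5237 bases of its locus with TXLNG (11739), LCORL 3679 with NCAPG (14873), RBBP4 6306 with SYNC (165) and PHF1 12 with CUTA (9267).

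The chromosomal neighbours of each member, the tested genes within 5 Mb on either side, were read beside it. In MUT against WT, EZH1 at -0.78 stood beside a median of -0.10 over 216 neighbours, RBBP7 at -0.42 beside 0.023 over 53, and PHF19 at 0.44 beside 0.069 over 59. JARID2 at -0.39 stood beside a median of -0.31 over 63 neighbours, and MTF2 at -0.33 beside -0.18 over 72, so that the medians around these genes were low as well. In SWP against WT, EED at 0.39 stood beside 0.27 over 47 neighbours and SUZ12 at -0.27 beside -0.23 over 135. RBBP7 at -0.28 stood beside -0.092 over 53 and PHF19 at 0.26 beside 0.11 over 59, both outside their neighbours' quartiles. EZH1, which did not pass there, was at -0.35 beside -0.23 over 216. The part of the regions in these differences was not tested.

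**Figure D5:**
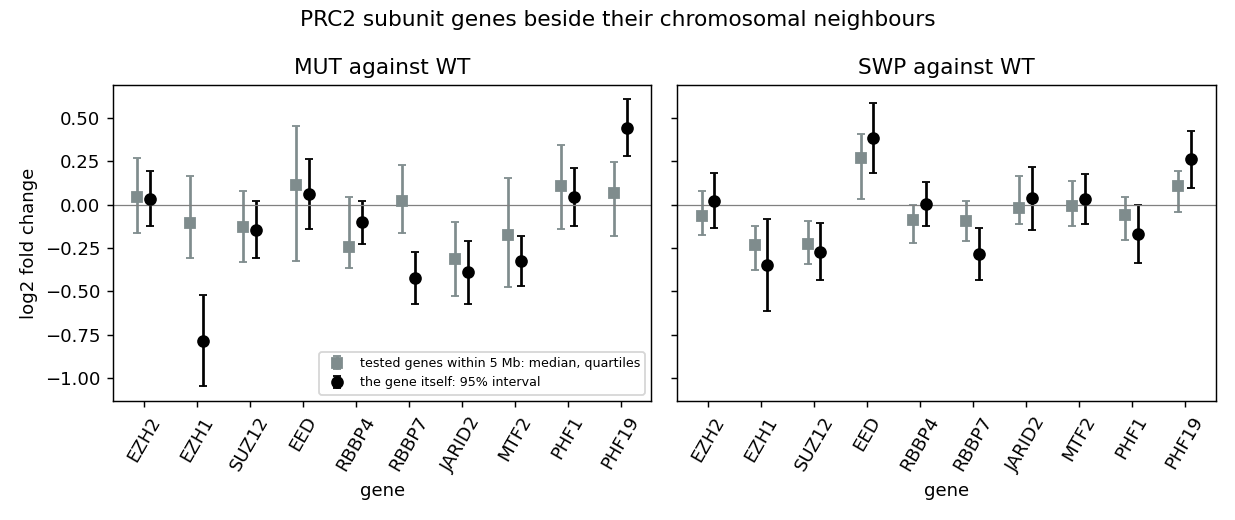
Log2 fold change of each subunit gene (black circles, limma's 95% intervals) beside the median and quartiles of the tested genes within 5 Mb (grey squares), in MUT against WT (left) and SWP against WT (right). In SWP, EED and SUZ12 lie within the quartiles of their neighbours, and RBBP7 and PHF19 lie outside theirs. EZH1, RBBP7 and PHF19 lie away from their neighbours in MUT.

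Genes that act with or against PRC2 were counted by list, to be read against 11.3% of all genes called higher and 10.1% lower in MUT against WT. Of 27 subunits of PRC1, the complex that ubiquitinates histone H2A, 1 rose in MUT against WT and 0 fell, with a median of -0.10. It was CBX6, a reader of the PRC2 mark (0.54, adjusted p = 0.0375). Its call was lost without WT replicate 2 or 3, any MUT replicate or SWP replicate 3, with an adjusted p up to 0.14. The call was also lost with no trend in eBayes. Of 12 genes for demethylases of lysine 27 and for the deubiquitinase that opposes PRC1, 0 rose and 1 fell, with a median of -0.054. This was OGT, which modifies proteins with N-acetylglucosamine (-0.52, adjusted p = 0.00237), and it no longer passed the fold threshold without WT replicate 1 or MUT replicate 3, with equal totals or upper quartiles, or with edgeR, where it lay between -0.50 and -0.44. The demethylase KDM6B had 0.42 against WT (adjusted p = 0.0109) and KDM6A -0.035 (adjusted p = 0.748). Among 7 writers of acetylation at lysine 27 or methylation at lysine 36, limma called 0, as did edgeR and DESeq2. Of these 1 had an unadjusted p under 0.05, against 47.6% of all genes.

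Other complexes that hold RBBP4 or RBBP7 were represented by 17 genes, of which 0 rose and 1 fell in MUT against WT. SMARCA1, the remodelling motor that works with RBBP4 in the NURF complex, fell from 7884 ± 547 normalized counts in WT to 2110 ± 204 in MUT (SD, n = 3; log2 fold change -1.90, adjusted p = 2.95e-07), and had 6205 ± 643 in SWP. Of 24 cell-cycle genes, 2 rose and 1 fell in MUT against WT, where 21.4% of all genes were called, with a median of 0.11. E2F1, the regulator whose family drives EZH2, rose from 5999 to 8960 (0.58, adjusted p = 2.58e-05), RRM2, a subunit of ribonucleotide reductase, rose by 0.59 (adjusted p = 0.00111), and CDT1, which licenses origins, fell by 0.98 (adjusted p = 0.00212). In SWP against WT, limma called 0 genes of these lists, as did edgeR and DESeq2, with 6 of 27 PRC1 subunits, 0 of 12, 1 of 7, 4 of 17 and 8 of 24 in the order above at an unadjusted p under 0.05. Over all genes, limma called 5.13% in this comparison, and 23.9% had an unadjusted p under 0.05.

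Genes known as PRC2 targets numbered 32, developmental regulators and the 2 cell cycle inhibitors CDKN2A and CDKN2B, and 23 passed the minimum mean of 10. In MUT against WT 5 rose, FOXA2 among them, and 3 fell, CDKN2A and CDKN2B among them, with a median of 0.017. Of all genes 11.3% were called higher and 10.1% lower. CDKN2A fell from 24476 to 10168 normalized counts (-1.26, adjusted p = 2.86e-06) and its neighbour CDKN2B from 1124 to 498 (-1.18, adjusted p = 3.96e-06). Both encode inhibitors of the cell cycle. EOMES, a regulator of mesoderm, rose from 310.0 to 584 (0.92, adjusted p = 0.000101). FOXA2, a regulator of endoderm, had 8.0 in WT and 38.9 in MUT (2.30, and 1.47 to 2.66 over the alternatives). SWP had a mean of 0.25 with at most 1 read in a library, so no fold is given for SWP. FOXA2 passed the minimum mean only through MUT, was left out at a minimum mean of 50, and its difference is given as a description. It was also the 1 gene of the list called in SWP against WT, where 5.13% of all genes were called. Both counts thus hold a gene that entered the test only through MUT, and nothing is drawn from its calls.

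The genes whose pattern over the 9 libraries was most like that of EZH1 were ENOSF1, JMJD7-PLA2G4B and PIP4P2, by the root mean square of the differences in log2 value after centring (0.056, 0.076 and 0.076, where the SD of EZH1 itself was 0.37).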

How the data were processed

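RNA-seq of 9 libraries was analysed here, out of 213 samples listed. The authors aligned poly(A)-selected, directional reads to hg38 with bwa mem (BWA 0.7.17-r2188 in the submitters' processing notes), which does not join reads across introns, marked duplicates and counted reads on GENCODE genes with a tool and strand setting not given in the sources used here. The deposited values are a signal, reads per gene divided by 1 DESeq2 size factor per library, and 100% of them gave whole reads (tolerance 0.001). GENCODE release 44 matched 57754 of 58336 identifiers.

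The test was limma 3.58.1 (R 4.3.3; lmFit and trended eBayes) over log2(normalized count + 1), fitting 9 libraries at once, for a mean of at least 10, with Benjamini-Hochberg adjustment over 20884 genes. Fold changes are on that scale. Intervals are limma's. Alternatives were pseudocounts of 0.1 and 10, all genes with a count, a minimum mean of 50, equal totals or upper quartiles, no trend, 2 groups only, the replicate block, edgeR 4.0.16 and DESeq2 1.42.0 on recovered reads, other fold thresholds, leaving out each library and, added after seeing the data, pseudogene reads and canonical lengths. Counts of alternatives leave out the fold thresholds, which cannot change an adjusted p, and the pseudogene reads, which most members lack. Deviations of libraries with the same replicate number correlated at 0.102 to 0.555 between WT and SWP and at 0.232 to 0.333 between MUT and SWP, which were taken as paired, and at 0.049 to 0.328 between WT and MUT, which were not. These ranges overlap. Replicates paired between SWP and both other lines would also be paired between WT and MUT, so the pairing is not settled. The main fit used no block, and each member whose adjusted p crossed 0.05 with the block is named.

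The members and gene lists were chosen with earlier results of these data known. Named beyond them are MYC, up to 4 called genes of each list with the largest change, and the 3 genes most like the called member. The demethylases KDM6A and KDM6B were named after their values were seen. Figures used matplotlib 3.10.9 in Python 3.11.15.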

Additional observations from a re-analysis of the deposited data

Results flagged for a closer look

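The lines with edited promoters differed from each other in 5 of the 10 subunit genes, by limma's test of MUT against SWP itself at an adjusted p under 0.05, where 38% of all genes passed. With the replicate number as a block PHF19 also passed, while all genes called by both thresholds rose from 4309 to 4773. For the block, the share of all genes passing by the adjusted p alone is not given. The log2 difference, MUT minus SWP, was -0.43 for EZH1, -0.32 for EED, -0.43 for JARID2, -0.36 for MTF2 and 0.21 for PHF1. Both lines lack the sequencing pool in their library names, so that this comparison does not set WT against them. JARID2 and MTF2 kept an adjusted p under 0.05 in 20 of 20 alternatives that change the fit or its data, EZH1 and EED in 18, and PHF1 in 9. Groups of 3 libraries were not tested for outliers.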

How the results depend on the processing

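The number of genes called was 4476 in MUT against WT, 1072 in SWP against WT and 4309 in MUT against SWP. With the adjusted p alone it was 8021, 2083 and 7944, with 5, 4 and 5 subunit genes, and with a log2 fold threshold of 1 it was 1648, 505 and 1723, with 0 subunit genes in each. Equal library totals gave 2 subunit genes in MUT against WT, the second being PHF19. Leaving out 1 library gave 3943 to 4942 genes and 1 to 2 members (2 without MUT replicate 1), 841 to 1254 genes and 0 members, and 3811 to 4784 genes and 0 members. With the replicate block, 4970, 1464 and 4773 genes and 1, 0 and 0 members were called. In MUT against WT, which was not taken as paired, SUZ12 had an adjusted p of 0.0396 with the block. For the subunit genes the block changed no call by both thresholds.

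Of 13 values that changed sign, all were near 0. EZH2 in MUT against SWP was -0.022 with edgeR and -0.026 with DESeq2. Over the settings that leave out 1 library, EZH2 ran from -0.026 to 0.039 in MUT against SWP (negative without MUT replicate 2 or SWP replicate 1), from -0.034 to 0.087 in MUT against WT (negative without WT replicate 1) and from -0.046 to 0.076 in SWP against WT (negative without WT replicate 1 or SWP replicate 2). EED ran from -0.015 to 0.12 in MUT against WT (negative without WT replicate 2). In SWP against WT, RBBP4 ran from -0.013 to 0.033 (negative without WT replicate 2 or 3 or SWP replicate 1 or 2) and JARID2 from -0.022 to 0.11 (negative without SWP replicate 3). The cause was not tested. The median of all genes moved by less than 0.1 under the other scalings. The lowest normalized count of a member in any library was 1058 (PHF1), and 3 libraries a line limit the estimate of the spread.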
